A study of Homo sapiens with 6 samples.

Results

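C7orf61, now named SPACDR, and the 4 genes TSC22D1 to TSC22D4 of the TSC22 domain family were followed in HCT116 cells given auxin or its solvent. C7orf61 was grouped with the family because it overlaps TSC22D4 on the same strand of chromosome 7. The 5 genes are 5 of the 58780 human genes in the deposited tables, and they have 44 of the 206761 annotated transcripts. C7orf61 and TSC22D4 were chosen by their log2 fold changes between these same libraries, so their values are given as a description with no test. TSC22D1, TSC22D2 and TSC22D3 belong by family name. HCT116 is a human colorectal carcinoma cell line. One group of 3 libraries came from cells given auxin for 16 h and the other group of 3 from cells given DMSO, numbered 1 to 3 as biological replicates in both groups. Auxin is a plant hormone that can trigger breakdown of proteins fused to a degron. Neither a degron-tagged protein nor a clone is named in the labels, and with these 2 groups alone an effect of auxin itself and an effect of losing a protein cannot be told apart.

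Proteins of the TSC22 domain family share a short conserved region, the TSC box, that lies beside a leucine zipper through which they form dimers. TSC22D1 was found as a transcript stimulated by TGF-β and is made in a long and a short form from separate start sites. TSC22D3, known as GILZ, is a glucocorticoid-induced gene and a target of FOXO factors. TSC22D1, TSC22D2 and TSC22D4 bind the pseudokinase NRBP1 and act with the WNK kinases, which sense cell volume and act through the kinases STK39 (SPAK) and OXSR1 on cation-chloride cotransporters. SPACDR, the product of C7orf61, takes part in forming the sperm acrosome, and the gene is mostly known from testis.

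The family relation can be read from 1 small exon. All 4 TSC22D genes hold an internal coding exon of 49 or 52 bases that runs into the TSC box. It is shown because it is also the exon from which 1 TSC22D4 transcript crosses into C7orf61. Each is printed in the sense of its transcript, 5′ to 3′, from GRCh38, and capitals mark the 30 positions that are identical in all 4 genes.
TSC22D1, chr13:44436044-44436095, minus strand: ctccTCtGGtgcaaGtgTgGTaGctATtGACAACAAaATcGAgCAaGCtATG
TSC22D2, chr3:150457076-150457127, plus strand: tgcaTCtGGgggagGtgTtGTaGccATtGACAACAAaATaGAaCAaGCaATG
TSC22D3, chrX:107715899-107715950, minus strand: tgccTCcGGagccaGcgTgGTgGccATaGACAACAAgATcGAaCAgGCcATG
TSC22D4, chr7:100467552-100467600, minus strand: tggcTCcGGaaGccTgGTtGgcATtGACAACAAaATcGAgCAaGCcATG
The exon of TSC22D4 is 3 bases shorter than the others. Over the aligned bases, identity ran from 73.1% between TSC22D2 and TSC22D3 to 83.7% between TSC22D3 and TSC22D4.

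C7orf61 (ENSG00000185955.4) lies at chr7:100456615-100464271 and TSC22D4 (ENSG00000166925.8) at chr7:100463359-100479279 on GRCh38, both on the minus strand, so that C7orf61 lies downstream. Their gene bodies share 913 bases. The overlap comes from 1 annotated transcript, TSC22D4-206, a processed transcript with no coding sequence. It uses 3 exons of TSC22D4 and then skips over the last exon of the coding transcript TSC22D4-201 to 2 exons inside C7orf61. The junction is shown beside the coding one, with 30 bases on each side, 5′ to 3′ on the minus strand of chromosome 7. Capitals mark bases of C7orf61 exons.
TSC22D4-201, own last exon: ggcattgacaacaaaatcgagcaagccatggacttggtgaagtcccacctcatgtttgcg
TSC22D4-206, into C7orf61: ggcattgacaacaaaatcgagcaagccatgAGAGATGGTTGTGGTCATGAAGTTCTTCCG
C7orf61-201, same position: AGAGATGGTTGTGGTCATGAAGTTCTTCCG
The junction joins base 100467552 to base 100464029 and enters C7orf61 4 bases before its ATG start codon. TSC22D4-206 shares 391 of the 1004 exonic bases of C7orf61-201, which is 38.9%, and 324 of the 573 of C7orf61-202. The other TSC22D4 transcripts share 0 exonic bases with C7orf61-201, and TSC22D4-201 ends 2247 bases before C7orf61 starts. RefSeq annotates a TSC22D4-C7ORF61 readthrough gene across the locus, at 100456620 to 100479214 on GRCh38.p14, for which GENCODE release 29 has 0 entries of that name.

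**Figure D1:**
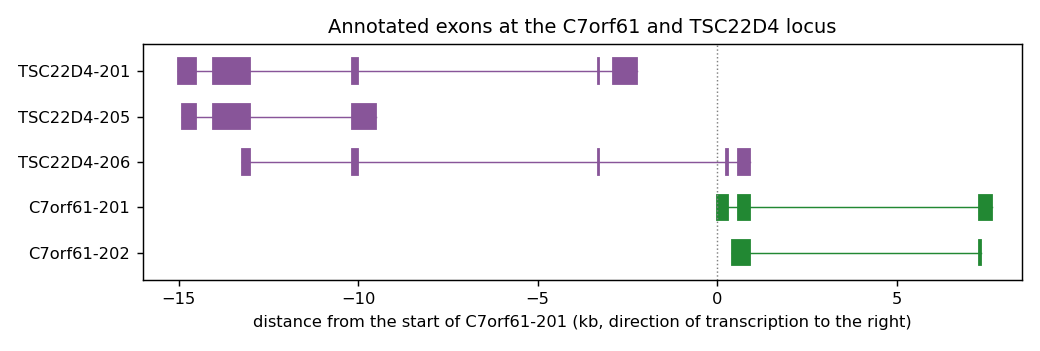
Annotated exons (boxes) and introns (lines) of 3 TSC22D4 and both C7orf61 transcripts, by distance in kb from the start of C7orf61-201, with transcription to the right. The last 2 exons of TSC22D4-206 sit on C7orf61 exons, and TSC22D4-201 ends before C7orf61 starts.

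C7orf61 was near 0 with DMSO and at the middle of all gene levels with auxin. Its TPM, a level per transcript length that sums to the same total in each library, was 0.16, 0.11 and 0.09 in DMSO replicates 1, 2 and 3 and 3.37, 2.34 and 2.84 in auxin replicates 1, 2 and 3. Every auxin library was far above every DMSO library. The expected counts behind these levels, which are estimated read numbers that need not be whole, were 62.9, 28.9 and 22.2 with DMSO and 1655.52, 541.7 and 576.2 with auxin. As CPM, counts scaled to the library's size with TMM factors, they were 0.105, 0.103 and 0.0810 with DMSO and 2.56, 2.27 and 2.60 with auxin. In CPM the groups did not overlap, in either direction, for 60.3% of all genes tested. The fitted log2 fold change was 4.67 (SE 0.17, n = 3 per group), a 25.5-fold higher level. It was the 9th most positive of 19725 genes tested, of which edgeR's quasi-likelihood test called 52.3% at an adjusted p under 0.05, 25.4% as higher after auxin. Between libraries of the same number, the log2 difference was 4.61, 4.46 and 5.00 in replicate pairs 1, 2 and 3. On the log2(TPM + 1) scale, which compresses low levels, it was 1.77. Among tested genes, 14.4% had a lower mean TPM than C7orf61 with DMSO and 50.5% with auxin. In bulk libraries, a change in the number of cells that express a gene and a change in RNA per cell cannot be told apart.

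TSC22D4, just upstream, was lower. It is the family member known as THG-1, and its TPM was 8.98, 5.35 and 5.45 with DMSO and 2.79, 1.84 and 1.61 with auxin. The groups did not overlap, which in CPM held for 60.3% of all genes tested, and replicate 1 was the highest in each. Its CPM was 12.7, 9.97 and 10.4 with DMSO and 3.41, 2.84 and 2.58 with auxin. The log2 fold change was -1.90 (SE 0.15, n = 3 per group), a level 3.74-fold lower, and 26.9% of all genes tested were called lower. Within the replicate pairs the log2 difference was -1.90, -1.81 and -2.02, and on the log2(TPM + 1) scale the group difference was -1.29. In TPM the 2 genes crossed in order: C7orf61 TPM over TSC22D4 TPM was 0.0178, 0.0206 and 0.0165 with DMSO and 1.21, 1.27 and 1.76 with auxin. In counts they did not cross in all libraries. C7orf61 held 0.815%, 1.02% and 0.778% of the counts of the pair with DMSO and 42.9%, 44.4% and 50.2% with auxin. It thus stayed below TSC22D4 in auxin replicates 1 and 2 and was about level with it in auxin replicate 3. The summed CPM of the pair was 12.8, 10.1 and 10.5 with DMSO and 5.98, 5.11 and 5.18 with auxin, so the pair together was lower.

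**Figure D2:**
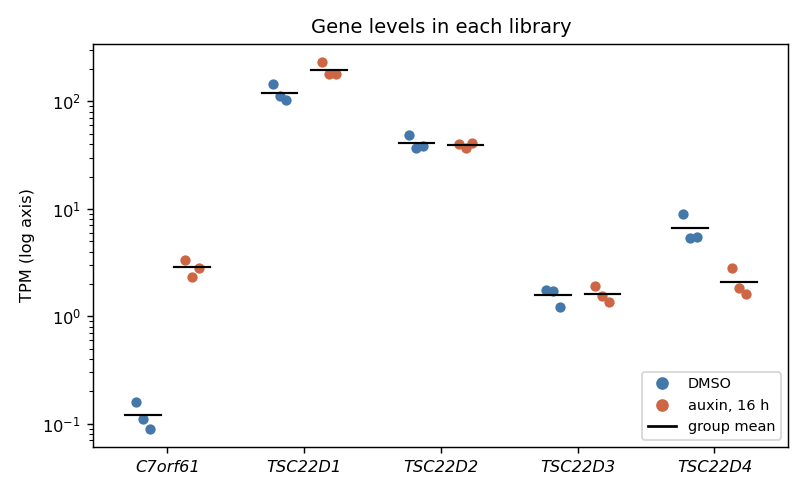
TPM (log axis) of the 5 genes in each library, with DMSO in blue, auxin for 16 h in orange and the group mean as a bar. C7orf61 and TSC22D1 are higher and TSC22D4 lower in all 3 auxin libraries, while the groups overlap for TSC22D2 and TSC22D3.

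Because the 2 genes share exons, the deposited uncertainty of each count bears on the result. The tables give a posterior standard deviation, the spread that the authors' software put on each estimated count. For C7orf61 it was 0.44 to 1.34 counts in the DMSO libraries and 3.91 to 8.52 in the auxin libraries, at most 3.29% of the count. TSC22D4 had the same standard deviation in each library, at most 0.746% of its count. For TSC22D1, TSC22D2 and TSC22D3 it was 0 in all 6 libraries. This spread was small beside the difference between the groups for both genes. It describes counts of the annotated transcripts only, and the RefSeq readthrough gene has no GENCODE entry under its name. Whether reads from such a readthrough RNA were counted as C7orf61 or TSC22D4 was not tested, and this spread cannot show it.

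Transcripts split the change further. C7orf61-201, which has 3 exons, had a TPM of 0.16, 0.10 and 0.09 with DMSO and 3.17, 2.19 and 2.66 with auxin, and 613 of its exonic bases lie outside TSC22D4-206. C7orf61-202 was at 0, 0.01 and 0 TPM with DMSO and at 0.20, 0.15 and 0.19 with auxin. The coding transcript TSC22D4-201 had 5.85, 2.96 and 3.49 TPM with DMSO and 0.43, 0.28 and 0.37 with auxin. TSC22D4-206, which runs into C7orf61, had 1.46, 1.59 and 1.40 TPM with DMSO and 1.14, 0.79 and 0.55 with auxin. Its mean TPM was 1.48 with DMSO and 0.83 with auxin, a difference opposite in direction to that of C7orf61 itself. In CPM its replicate 1 pair was nearly level, at 0.742 with DMSO and 0.710 with auxin. That pair differed by -0.06 on the log2 scale, against -0.92 and -1.28 in pairs 2 and 3. The posterior standard deviation of its DMSO replicate 1 count was 48.5 on a count of 446.8.

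The makeup of TSC22D4 differed between the groups as well as its amount. TSC22D4-201 made up 61.5% ± 5.29 (SD, n = 3) of the gene's TPM with DMSO and 17.9% ± 4.49 with auxin. TSC22D4-206 made up 23.9% ± 6.94 and 39.5% ± 4.56. TSC22D4-202, a second coding transcript, made up 12.5% ± 3.33 and 23.7% ± 1.31, at 1.37, 0.72 and 0.48 TPM with DMSO and 0.62, 0.45 and 0.39 with auxin. Its TPM ranges overlapped. The retained-intron transcript TSC22D4-205, which stops in the intron after the third annotated exon, was the one that was higher: 0.26, 0.07 and 0.07 TPM with DMSO and 0.56, 0.31 and 0.28 with auxin. Its share was 1.83% ± 0.921 and 18.2% ± 1.67. The posterior standard deviation of these 4 transcripts reached 26.1% of a count, so their split is less certain than the gene totals.

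The 3 transcripts that hold C7orf61 exons were also summed, since that sum does not depend on how reads on C7orf61 exons were divided among them. Reads on the TSC22D4 exons of TSC22D4-206 could still have been assigned to other TSC22D4 transcripts. Their summed CPM was 0.846, 1.29 and 1.08 with DMSO and 3.27, 2.90 and 3.01 with auxin, a ratio of 2.85 between the means. TSC22D4-206 took 87.7%, 92.1% and 92.4% of these counts with DMSO and 21.7%, 21.8% and 13.7% with auxin. Most of what was counted on transcripts with C7orf61 exons in DMSO was therefore assigned to the TSC22D4-206 structure, and most of it in auxin to C7orf61 itself. The 25.5-fold value holds for C7orf61 as counted apart from TSC22D4-206. Whether the reads fell on the shared or the unshared exons was not tested, since the tables hold totals only.

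**Figure D3:**
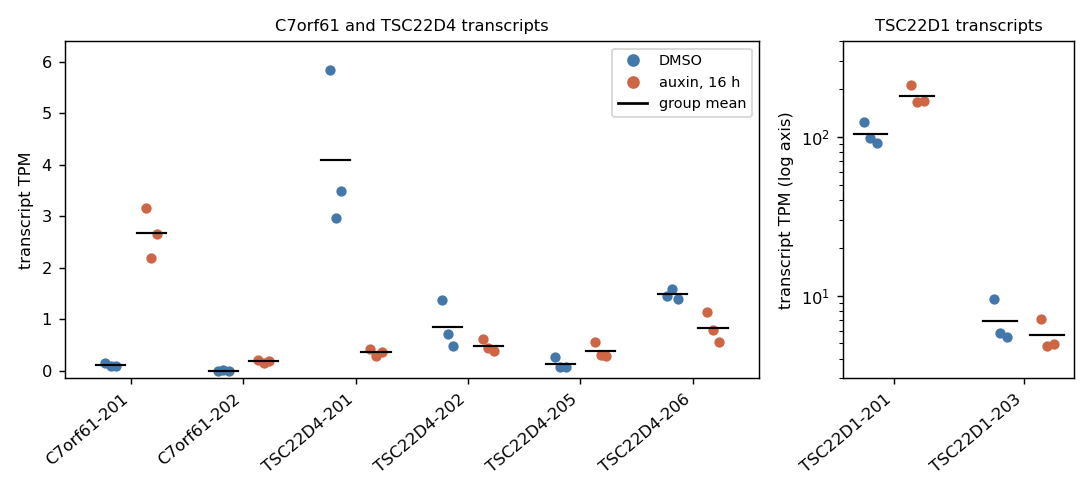
Transcript TPM in each library with the group mean as a bar: the C7orf61 and TSC22D4 transcripts on a linear axis (left) and the short and long TSC22D1 transcripts on a log axis (right). C7orf61-201 and TSC22D4-201 change places, and TSC22D1-201 is higher with auxin while TSC22D1-203 overlaps between the groups.

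TSC22D1 (ENSG00000102804.14, chr13:44432143-44577147, minus strand) was the most abundant member and rose. Its TPM was 144.2, 112.1 and 102.9 with DMSO and 231.3, 180.4 and 181.1 with auxin. All 3 auxin libraries lay above all 3 DMSO libraries. In CPM the groups did not overlap, in either direction, for 60.3% of genes tested. The CPM was 331.8, 376.8 and 335.0 with DMSO and 646.2, 651.8 and 616.2 with auxin. edgeR's quasi-likelihood test gave a log2 fold change of 0.88 (SE 0.07, 1.83-fold) with an adjusted p of 7.26e-05, and adjusted p ran from 6.06e-25 to 0.0237 over the alternative settings. The level was already above that of 95.9% of the tested genes with DMSO and above 97.7% with auxin. 3 annotated genes overlap TSC22D1 on the opposite strand, and each had at most 0.0736% of its CPM in any library.

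The short form passed the test and the long form did not. TSC22D1-201, which starts at the inner promoter, had 124.8, 98.98 and 90.88 TPM with DMSO and 212.2, 166.9 and 167.8 with auxin. Its log2 fold change was 0.97 (SE 0.08), with an adjusted p of 0.000953 by edgeR's quasi-likelihood test over 83072 transcripts, of which 19.7% were called and 8.43% called higher. TSC22D1-203, the long form, whose start lies 139720 bases upstream, had 9.46, 5.77 and 5.45 TPM with DMSO and 7.07, 4.84 and 4.95 with auxin. Its groups overlapped, and the fitted log2 change was -0.10 (SE 0.10), with an adjusted p of 0.529 in the same edgeR test. The ratio of the short to the long form was 13.2, 17.2 and 16.7 with DMSO and 30.02, 34.5 and 33.9 with auxin. The log2 ratio differed by 1.07, with a two-sided exact permutation p of 0.1, the smallest that 3 against 3 libraries allow. Of 13 annotated transcripts 10 were tested, 1 was called higher and 1 lower. The lower one was the processed transcript TSC22D1-204, at 0.88, 0.78 and 0.50 TPM with DMSO and 0.26, 0.30 and 0.25 with auxin, against 11.2% of all transcripts called lower. Its adjusted p of 0.037 in edgeR's quasi-likelihood test went to between 0.0643 and 0.128 when any 1 of the 6 libraries was left out.

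The bases upstream of the 2 TSC22D1 starts and of the C7orf61 start are printed, since transcripts described above begin at or near them. Use of these starts was not tested. The sequences are upstream bases only, 5′ to 3′ on the minus strand, from RefSeq promoter windows on GRCh38.p14. The C7orf61 run leaves out 11 bases that GENCODE places in its first exon. The TSC22D1 short-form run stops at the RefSeq start, 44436858. GENCODE starts TSC22D1-201 at 44436845, so this run does not reach that start.
C7orf61, chr7:100464272-100464510: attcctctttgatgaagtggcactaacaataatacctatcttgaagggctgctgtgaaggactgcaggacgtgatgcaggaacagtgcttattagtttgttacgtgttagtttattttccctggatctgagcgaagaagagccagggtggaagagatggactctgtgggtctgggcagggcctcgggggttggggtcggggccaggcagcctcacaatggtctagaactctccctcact
TSC22D1 short form, chr13:44436859-44437108: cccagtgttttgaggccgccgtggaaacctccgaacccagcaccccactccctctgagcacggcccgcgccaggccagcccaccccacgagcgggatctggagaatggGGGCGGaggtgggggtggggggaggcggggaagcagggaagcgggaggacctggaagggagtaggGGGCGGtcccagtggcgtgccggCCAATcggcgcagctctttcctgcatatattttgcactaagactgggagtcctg
TSC22D1 long form, chr13:44576566-44576815: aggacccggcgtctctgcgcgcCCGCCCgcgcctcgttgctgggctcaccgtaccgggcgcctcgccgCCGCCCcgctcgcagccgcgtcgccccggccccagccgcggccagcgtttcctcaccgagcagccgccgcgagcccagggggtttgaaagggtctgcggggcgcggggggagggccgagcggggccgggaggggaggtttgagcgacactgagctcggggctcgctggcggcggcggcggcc
Capitals mark matches, on either strand, to the GC box GGGCGG or the CCAAT box. The short start had 2 GC boxes and 1 CCAAT box, the long start 2 GC boxes, and the C7orf61 window none of the motifs searched. The motifs were the TATA box TATAAA, the CCAAT box, the GC box GGGCGG, the E-box CACGTG, the cAMP response element TGACGTCA, the forkhead core TGTTTAC and the consensus of the glucocorticoid response element, none of which contains another. Of 35116 RefSeq windows of 250 upstream bases, 42.6% held GGGCGG, 32.0% CCAAT, 10.7% TATAAA, 6.34% CACGTG, 2.98% TGTTTAC, 1.65% TGACGTCA and 0.00285% the glucocorticoid response element. The TSC22D4 window held none of the 7 either, and it is the same sequence as the window of the RefSeq readthrough gene. For TSC22D3 only the window of its short start was searched, counted from the RefSeq start at 107717062. It held 1 TGTTTAC, the forkhead core, 147 bases upstream of that start, and 1 TATAAA 29 bases upstream. GENCODE starts TSC22D3-206 73 bases farther upstream, at 107717135, so the TATAAA lies inside its first exon. These matches describe the letters only, and a missing match says no more than that the letters are not in the window.

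TSC22D2 (ENSG00000196428.12, chr3:150408335-150466431, plus strand) is the second most abundant member. Its TPM was 48.9, 36.5 and 38.0 with DMSO and 40.2, 37.1 and 40.8 with auxin, and the groups overlapped. In CPM it was 71.5, 73.0 and 75.3 with DMSO and 75.1, 81.0 and 82.6 with auxin. The log2 fold change was 0.12 (SE 0.06), with an adjusted p of 0.121 by edgeR's quasi-likelihood test, and with the replicate number as a block it was also 0.12, with an adjusted p of 0.00553 in a fit that called 69.9% of all genes. With upper-quartile scaling the value was 0.24 (adjusted p 0.00275 in edgeR), without both libraries numbered 1 it was 0.14 (adjusted p 0.0291 in edgeR), and limma on log2(TPM + 1) gave -0.05 (adjusted p 0.842). Its transcripts TSC22D2-203, TSC22D2-204 and TSC22D2-202 had mean shares of 48.8%, 32.3% and 12.8% of the gene's TPM with DMSO and 49.4%, 33.5% and 11.0% with auxin. None of its 5 tested transcripts passed edgeR's quasi-likelihood test, the lowest adjusted p being 0.472. At an unadjusted p under 0.05 there were 0 with edgeR and limma and 1, higher, with the replicate block.

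TSC22D3 (ENSG00000157514.16, chrX:107713221-107777342, minus strand), the glucocorticoid-induced member, was low in both groups. Its TPM was 1.76, 1.71 and 1.23 with DMSO and 1.93, 1.56 and 1.35 with auxin. The groups overlapped. The CPM was 2.27, 3.33 and 2.17 with DMSO and 3.31, 3.42 and 2.65 with auxin. The log2 fold change was 0.28 (SE 0.20), with an adjusted p of 0.280 by edgeR's quasi-likelihood test, and with the replicate number as a block it was 0.30, with an adjusted p of 0.0327. Within the replicate pairs the log2 difference was 0.55, 0.04 and 0.29. Its main transcripts were TSC22D3-206, at 42.3% ± 12.2 (SD, n = 3) of its TPM with DMSO and 50.8% ± 6.43 with auxin, and TSC22D3-205, at 44.1% ± 8.57 and 38.1% ± 6.65. None of its 4 tested transcripts passed edgeR's quasi-likelihood test, with adjusted p of 0.462 and above, and 0 did at an unadjusted p under 0.05 or with limma.

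Within the family, the order by mean TPM was TSC22D1, TSC22D2, TSC22D4, TSC22D3 in both groups. With auxin TSC22D4 and TSC22D3 overlapped, at 1.61 to 2.79 and 1.35 to 1.93 TPM. With DMSO none of the neighbours in this order overlapped. TSC22D1 made up 70.8% ± 1.15 (SD, n = 3) of the summed family TPM with DMSO and 82.0% ± 1.63 with auxin. TSC22D2 went from 24.4% ± 1.21 to 16.5% ± 1.83 and TSC22D4 from 3.84% ± 0.502 to 0.853% ± 0.148. TSC22D3 was at 0.932% ± 0.145 and 0.668% ± 0.0591. The summed TPM of the family was 203.9, 155.7 and 147.6 with DMSO and 276.2, 220.9 and 224.9 with auxin. It was higher with auxin, and nearly all of it was TSC22D1 and TSC22D2.

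No other tested gene around C7orf61 was called higher. Within 100 kb there were 13 other annotated genes besides TSC22D4, 8 of them tested. 3 of the 8 (37.5%, against 52.3% of all genes) were called by edgeR's quasi-likelihood test, and all 3 fell. Counts of those higher were 0 at an unadjusted p under 0.05 as well, and 0 with DESeq2 and with limma. Among all genes 25.4% were called higher and 26.9% lower, so 0 higher of 8 says little about the locus. PPP1R35, a protein phosphatase 1 regulatory subunit that acts in centriole growth, lies 20050 bases beyond the end of C7orf61 on the same strand. Its CPM was 4.85, 3.93 and 3.48 with DMSO and 0.286, 0.197 and 0.221 with auxin, and its log2 fold change was -4.10 (SE 0.21; adjusted p 1.01e-05 in edgeR's test). AC092849.2 and AC092849.1 overlap PPP1R35 on the opposite strand, and neither was tested. AC092849.2 had a mean CPM of 0.0117 with DMSO and 0.00357 with auxin, and AC092849.1 0.0258 and 0.00191. AGFG2, an Arf GTPase-activating protein family member, had 7.35, 5.34 and 5.78 CPM with DMSO and 2.25, 1.88 and 1.75 with auxin. Its groups did not overlap, which held for 60.3% of all genes tested. The fitted log2 change was -1.65 (SE 0.16, edgeR adjusted p 0.000164). NYAP1, an adaptor of phosphoinositide 3-kinase in neurons, is the nearest gene beyond TSC22D4. Its log2 fold change was -0.83 (SE 0.19; adjusted p 0.00899 in edgeR's test), from 1.31, 1.59 and 1.26 to 0.962, 0.707 and 0.650 CPM, and limma on log2(TPM + 0.1) put its adjusted p at 0.0614.

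The remaining 5 tested neighbours did not pass. The meiotic histone reader ZCWPW1 had a log2 fold change of -0.31 (adjusted p 0.176 in edgeR's test) and the RNA capping enzyme MEPCE -0.15 (adjusted p 0.110), and their gene bodies overlap on opposite strands. The receptors PILRA and PILRB, at -0.12 and 0.11, changed sign with the library left out. PILRB went to -0.02 or -0.11 when DMSO replicate 2 or DMSO replicate 3 was dropped and to -0.38 when auxin replicate 1 was. PILRA went to 0.48 when DMSO replicate 1 was dropped and to 0.28 when auxin replicate 3 was. STAG3L5P-PVRIG2P-PILRB, which overlaps PILRB on the same strand, was at -0.82 (adjusted p 0.167 in edgeR's test), and -1.35 (adjusted p 0.0209) without auxin replicate 1. Without both libraries numbered 1 it was -0.86 (adjusted p 0.000319 in edgeR's test). With the replicate block 5 neighbours were called lower, MEPCE (adjusted p 0.00416) and STAG3L5P-PVRIG2P-PILRB (adjusted p 4.64e-05) in addition, by edgeR's quasi-likelihood test. That fit called 69.9% of all genes in either direction.

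**Figure D4:**
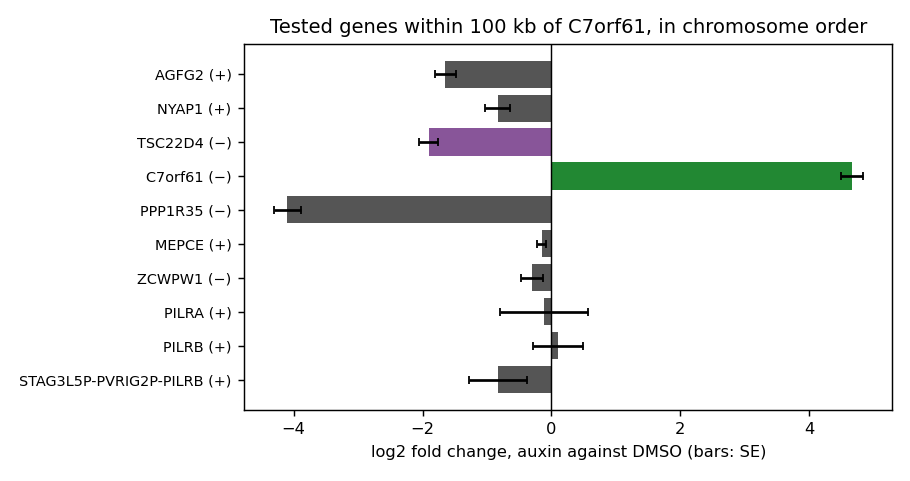
Log2 fold change, auxin against DMSO, of the 10 tested genes at the locus in chromosome order, with bars of 1 SE and the strand in brackets. C7orf61 (green) points up at 4.67, TSC22D4 (purple) points down at -1.90, and PPP1R35, AGFG2 and NYAP1 also point down.

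The genes around the TSC22 proteins in their pathways were taken as 4 lists, with 12 genes called higher and 14 lower among 39 tested. Over all genes tested, 25.4% were called higher and 26.9% lower, 52.3% in all, and these shares are the background for each list. With limma on log2(TPM + 1) the 4 lists together had 1 gene called higher and 4 lower, and with upper-quartile scaling 6 were called lower. Without DMSO replicate 3 there were 7 higher, and without auxin replicate 2 or auxin replicate 3 there were 8 or 7 lower. The kinase module to which TSC22 proteins bind changed in mixed directions. Of 12 genes 10 were tested, 3 rose and 4 fell by edgeR's quasi-likelihood test, with a median log2 fold change of -0.10 against 0.02 over all genes. That is 70.0% called, against 52.3% of all genes. Limma on log2(TPM + 1) called 1 higher and 2 lower. NRBP1, the pseudokinase partner, fell: 111.9, 116.6 and 120.1 CPM with DMSO and 79.4, 83.5 and 85.2 with auxin (log2 fold change -0.49, adjusted p 0.000338 by edgeR). Its paralogue NRBP2 fell by 1.79 on the log2 scale (adjusted p 0.00205 by edgeR), and the kinase WNK4 fell by 3.18 on that scale from a CPM of at most 0.850 (adjusted p 0.000248 by edgeR). WNK1, the broadly expressed WNK kinase, was at 250.3 to 266.1 CPM with DMSO and 241.9 to 250.2 with auxin (log2 fold change -0.06, adjusted p 0.411 by edgeR). CAB39L and CAB39, scaffolds that activate STK39 and OXSR1, rose by 1.33 on the log2 scale (adjusted p 3.19e-05) and 0.34 (adjusted p 0.00953) in edgeR's test. STK39 rose by 0.33 on the log2 scale (adjusted p 0.0269 by edgeR), a call lost at adjusted p of 0.0573 to 0.0962 without DMSO replicate 1, DMSO replicate 3, auxin replicate 2 or auxin replicate 3. OXSR1 was at -0.14 (adjusted p 0.294, and 0.00647 with the replicate block, by edgeR).

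Among the cation-chloride cotransporters and the LRRC8 subunits of volume-regulated anion channels, 11 of 14 genes were tested, 2 rose and 5 fell, with a median log2 fold change of -0.21. The share called was 63.6%, against 52.3% of all genes. With upper-quartile scaling 4 were called higher and 2 lower, with library size alone 1 and 4, and with limma on log2(TPM + 1) 0 and 2. The potassium-chloride cotransporters SLC12A7 and SLC12A4 fell most. SLC12A7 was at 35.1, 31.4 and 33.7 CPM with DMSO and 9.24, 6.75 and 7.01 with auxin (log2 fold change -2.12, adjusted p 2.17e-05 by edgeR). SLC12A4 had a log2 fold change of -1.74 (adjusted p 0.000194 by edgeR). LRRC8D, a channel subunit, rose by 0.48 on the log2 scale (adjusted p 0.000517 by edgeR) and SLC12A8 by 0.29 (adjusted p 0.0331 by edgeR). The SLC12A8 call was lost, at adjusted p of 0.0691 to 0.138, without DMSO replicate 2, DMSO replicate 3, auxin replicate 1 or auxin replicate 3. In each of these cases 1 gene of the list was called higher. The number that fell was 3 when DMSO replicate 1, DMSO replicate 3, auxin replicate 2 or auxin replicate 3 was left out.

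Of the glucocorticoid receptor, FOXO factors and glucocorticoid-induced genes, 13 of 14 were tested, 7 rose and 3 fell, with a median log2 fold change of 0.17. The share called was 76.9%, against 52.3% of all genes. The split depended on the scaling: upper-quartile factors called 8 higher and 0 lower, library size alone 4 and 3, and limma on TPM called 0 of the 13 at either pseudocount and 0 at an unadjusted p under 0.05. The list holds regulators of TSC22D3 and other genes that glucocorticoids induce. CEBPD, a transcription factor, rose by 0.46 on the log2 scale (adjusted p 0.0405), with 5.20 to 6.76 CPM with DMSO and 6.67 to 9.07 with auxin. The kinase SGK1 rose by 0.45 (adjusted p 0.00140) in the same edgeR test. PER1, a clock gene, had a log2 fold change of -0.81 (adjusted p 0.0270), FOXO4 -0.40 (adjusted p 0.0248) and the receptor gene NR3C1 -0.23 (adjusted p 0.0309) by edgeR. The co-chaperone FKBP5, a marker of receptor activity, was at 0.12 (adjusted p 0.367, and 0.0170 with the replicate block, by edgeR). Leaving out 1 library ended several of these calls in edgeR's test. Those of PER1 and FOXO4 were lost without DMSO replicate 2, auxin replicate 2 or auxin replicate 3, at adjusted p of 0.0703 to 0.0826 and 0.0663 to 0.0884. The NR3C1 call was lost without DMSO replicate 2, DMSO replicate 3, auxin replicate 1 or auxin replicate 3, at 0.0752 to 0.1001, and the CEBPD call without DMSO replicate 2, DMSO replicate 3, auxin replicate 1 or auxin replicate 2, at 0.0897 to 0.147. The count that rose was 4 without DMSO replicate 3 or auxin replicate 2. The count that fell was 1 without auxin replicate 2, and all 3 lower calls were lost without DMSO replicate 2 or auxin replicate 3.

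Of 18 other sperm acrosome genes 5 were tested, 0 rose and 2 fell by edgeR's quasi-likelihood test, at a median of -0.33 on the log2 scale. Among all genes 25.4% were called higher and 26.9% lower, so 0 of 5 says little about the list. At an unadjusted p under 0.05, 0 were higher with edgeR, 1 with the replicate block and 1 with DESeq2, and the adjusted p of the last 2 called 0. With upper-quartile scaling 1 gene was called higher, SPACA9, named here after its values were seen, and 1 lower. SPACA1, SPACA4, SPACA7 and ZPBP, all sperm acrosome proteins, had 0 counts in all 6 libraries. PICK1, a scaffold with roles outside sperm as well, was at 11.4, 10.3 and 12.4 CPM with DMSO and 6.37, 5.87 and 6.23 with auxin (log2 fold change -0.88, adjusted p 0.000240 by edgeR). ACR, the acrosomal protease acrosin, was at 0.241 to 0.353 CPM with DMSO and 0.176 to 0.213 with auxin (log2 fold change -0.63, adjusted p 0.0427 by edgeR). Leaving out DMSO replicate 1, DMSO replicate 3 or any auxin library put its adjusted p at 0.0701 to 0.129, and the list then had 1 call.

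**Figure D5:**
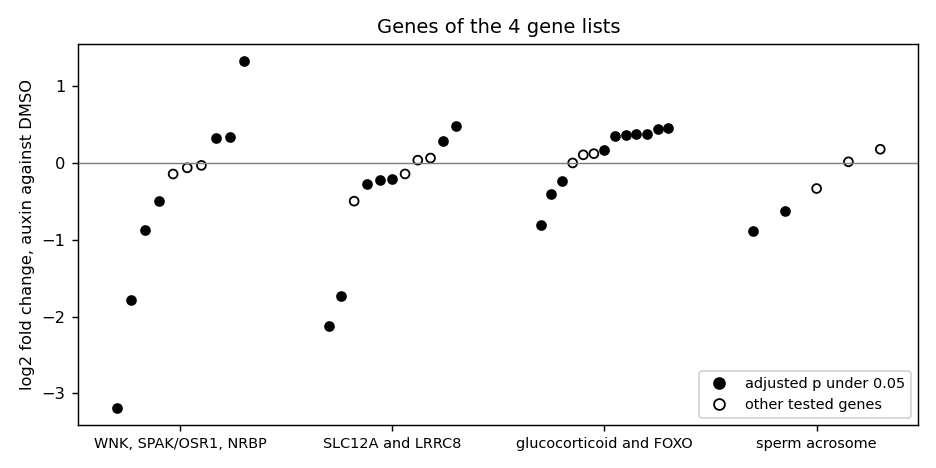
Log2 fold change of each tested gene of the 4 gene lists, with filled circles for an adjusted p under 0.05 and open circles for the rest. The kinase and transporter lists reach down to -3.18 and -2.12, while the glucocorticoid and FOXO list lies between -0.81 and 0.46.

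The genes whose profile over the 6 libraries was closest to each member were found among 13946 genes by the Euclidean distance of centred log2 CPM. The likeness rests on the same libraries and is given as a description. Closest to C7orf61 was BX470102.2 (distance 0.261), at 1.82, 1.73 and 1.45 CPM with DMSO and 46.1, 46.8 and 50.6 with auxin. LINC02019 (1.40) and AMIGO3 (1.68) came next and much farther away. TSC22D4 was closest to MS4A15 (0.0699), FANCE (0.110) and PRRG2 (0.111), and TSC22D1 to PHLDA1 (0.0633), KDM5B (0.0676) and FANCF (0.0814). TSC22D2 lay near EML4 (0.0196), TMED8 (0.0335) and TIMM21 (0.0356). TSC22D3 lay near GLDN (0.209) and EIF4A2 (0.265).

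The libraries held 234037969 to 625895062 expected counts, and both libraries numbered 1 were the deepest, at 546128199 (DMSO) and 625895062 (auxin). Without them the log2 difference was 4.73 for C7orf61, -1.91 for TSC22D4, 0.83 for TSC22D1, 0.14 for TSC22D2 and 0.17 for TSC22D3. edgeR called 5010 of all 19725 genes higher and 5311 lower, 48.5% of calls higher. With upper-quartile scaling 59.7% of calls were higher and with limma on log2(TPM + 1) 24.6%, settings that moved the median gene by 0.12 and -0.14 on the log2 scale. Of 10 colorectal epithelial markers 6 were tested and all 6 rose in edgeR's test, against 25.4% of all genes, while limma on TPM called 0 of the 6 at either pseudocount. The list's summed level was 2142.12 to 2456.49 CPM with DMSO and 2795.05 to 3063.21 with auxin. CDX1 was at 0, and VIL1, LGALS4 and CEACAM5 were at mean CPM of at most 0.0317. Of 11 blood, endothelial and fibroblast markers 5 were tested and 0 called by edgeR (1 lower at an unadjusted p under 0.05, and 1 lower with DESeq2), at summed CPM of 3.40 to 5.54 and 1.62 to 3.75. With the replicate block edgeR called 1 of these markers higher and 1 lower. The part of these shifts in the members' changes was not tested.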

How the data were processed

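The 6 RNA-seq libraries were made from total RNA of HCT116 cells, depleted of ribosomal RNA, with a stranded kit and paired-end reads, per the labels' protocols. For each library the authors deposited 1 gene table and 1 transcript table, which per the file headers give an expected count, which is an estimated read count before normalization, a TPM, scaled by the authors for length and library, and a posterior standard deviation of the count. The submitters' processing notes name bcl2fastq 2.20, STAR, DESeq2 and GRCh38 without saying which step each served. Neither the annotation nor the strand setting of the counting is given in the sources used here. All 58780 human gene IDs matched GENCODE release 29, and 746 other IDs were left out.

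Expected counts were rounded and tested with edgeR 4.0.16 in R 4.3.3 (filterByExpr, TMM factors, quasi-likelihood test, Benjamini-Hochberg adjustment over all 19725 genes or 83072 transcripts, threshold 0.05), with the groups as the one term. Library totals were 234037969 to 625895062 expected counts, and limits drawn from counts cover counting error only. Groups came from the titles. The labels call the libraries biological replicates and do not say how cultures were separated, so p-values measure the spread between these 6 libraries. Same-numbered libraries deviated together from their group means (r = 0.592, 0.221 and 0.225 for numbers 1, 2 and 3 across genes, which are not independent). Libraries of different numbers ran from -0.421 to 0.268, and DMSO replicate 3 with auxin replicate 2, at 0.268, was above the matched values of numbers 2 and 3, so that number 1 alone stood apart. The matched values all passed a limit of 0.1, set for taking the numbers as pairs. DMSO replicate 2 with auxin replicate 3 (0.138) and DMSO replicate 3 with auxin replicate 2 passed it too. The limit therefore cannot show that numbers 2 and 3 are pairs. The replicate pairs and the block rest on the shared number, not on a stated batch. A fit with the replicate number as a block was an alternative. Other alternatives were other scaling factors, other count filters, DESeq2 1.42.0, limma 3.58.1 on log2(TPM + 1) and log2(TPM + 0.1), and leaving out each library. Leaving out both libraries numbered 1 was added after seeing the data. The tests were checked on simulated counts. In the gene simulation, planted in few of the genes, most planted changes were recovered. In the data edgeR called 52.3% of genes, and a change of that extent was not simulated for genes. In the transcript simulation, planted in few of the transcripts as for genes, nearly all were missed. With a larger share of transcripts changed, a case added after seeing that, most of the larger changes and few of the smaller ones were recovered, and few calls were false. A transcript that did not pass is therefore not shown to be unchanged.

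The members and gene lists were chosen with earlier results of these data known. Named genes were the 5 members, the 2 called genes with the largest change in each direction of each list, NRBP1, WNK1, OXSR1, STK39, NR3C1 and FKBP5, all tested genes within 100 kb of C7orf61, and for each member the 3 genes nearest in profile (prior count 0.5, mean CPM of at least 0.5), of which 1 is not reported here. Transcripts were named at 10% or more of their gene's mean TPM in a group, and TSC22D1-203, TSC22D1-204 and C7orf61-202 were named after their values were seen. Sequences were read from GRCh38 and from RefSeq windows. RefSeq protein sequences were not used here.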

Additional observations from a re-analysis of the deposited data

How the results depend on the processing

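Of 544 recomputed fold changes with a test, 442 kept their direction and side of the threshold, 67 lost and 14 gained a call, and 21 changed sign, all 21 in genes or transcripts that were not called as reported. Of 230 recomputed counts of calls, 168 stayed within 1.5 times the reported count, and of 33 untested fold changes and shares 27 moved by less than the spread between replicates. TSC22D1 kept its call in all 15 alternatives, at log2 fold changes of 0.72 to 0.997. Limma on TPM called 970 genes higher and 2966 lower (pseudocount 1) or 1017 and 3223 (pseudocount 0.1), and gave 1.77 and 3.74 for C7orf61, -1.29 and -1.61 for TSC22D4, -0.0524 and -0.0533 for TSC22D2, -0.0612 and -0.094 for PILRB, and -0.032 and -0.0326 for FKBP5. In the 4 gene lists together it called 1 gene higher at either pseudocount and 4 or 6 lower. With a pseudocount of 1 WNK4 was at -0.29 and PPP1R35 at -2.67. A pseudocount shrinks low genes by construction, and for the rest the cause was not tested. Upper-quartile scaling gave 0.24 for TSC22D2, 6 list genes lower, 1 sperm acrosome gene higher, 0.0114 for PILRA and 0.0607 for WNK1. With the replicate block, which called 69.9% of all genes, TSC22D2 (0.12) and TSC22D3 (0.30) passed the threshold. With the block 5 neighbours of C7orf61 were called lower, and 10666 transcripts were called higher. MEPCE, STAG3L5P-PVRIG2P-PILRB, OXSR1 and FKBP5 also passed, no other call of a named gene changed, and TSC22D3-205 was at 0.0008. Without both libraries numbered 1, TSC22D2 was at 0.14 and passed, PILRB was at -0.0228 and TSC22D2-202 at 0.0493. Limma on transcript TPM called 2553 transcripts higher and gave -0.0332 for TSC22D2-203 and -0.0025 for TSC22D2-204. Leaving out 1 library at a time gave 7 to 10 list genes higher and 7 to 13 lower, 3274 to 5395 transcripts higher and 5626 to 8883 lower. The transcript calls were fewest without DMSO replicate 2 (3274 higher, 5626 lower), and were 3873, 3289 and 3550 higher without DMSO replicate 3, auxin replicate 2 and auxin replicate 3. PILRB then ranged from -0.38 to 0.47, PILRA from -0.996 to 0.48 and TSC22D3-205 from -0.16 to 0.10. By expected counts in place of TPM, the share of TSC22D4-205 differed by 24.5 in place of 16.3 percentage points. Depth limits C7orf61 most in the DMSO libraries, where it rests on 22.2 to 62.9 counts, and transcripts were called far less often than genes.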
